A study of Homo sapiens with 12 samples.

Results

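The genes described here are 9 members of the NRF2 pathway and of the pentose phosphate pathway: NFE2L2, KEAP1, NQO1, HMOX1, GCLC, GCLM, TXNRD1, SRXN1 and PGD. They were taken by gene symbol from the 28008 genes in each count table, as a set proposed with earlier results of these data known, so that the shares of members called are descriptions. All 9 passed the filter on low counts in both lines. The libraries are RNA-seq of QGP-1 and BON-1, established human pancreatic neuroendocrine tumor lines. Every group carried tet-MUC1shRNA, a hairpin against MUC1 that doxycycline (DOX) turns on. The groups were QGP-1 with vehicle (0.1% DMSO), QGP-1 with 500 ng/mL DOX, BON-1 with vehicle and BON-1 with DOX, with treatment for 7 days and 3 libraries from cultures in triplicate in each. QGP-1 cells grew in RPMI 1640 and BON-1 cells in DMEM/F-12. Since each group holds the hairpin and none of these libraries is a DOX-treated line with a control hairpin, the effects of DOX itself and of the hairpin cannot be told apart. A QGP-1 library held 38224144 to 50525926 counts, and a BON-1 library 15981954 to 28484324.

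NRF2, the transcription factor encoded by NFE2L2, is held in the cytoplasm by KEAP1, which hands it to a CUL3 ubiquitin ligase for degradation. Oxidants and electrophiles modify KEAP1, so that NRF2 escapes, pairs with a small MAF protein and binds antioxidant response elements near genes for detoxification, glutathione and thioredoxin. The pathway is controlled largely at the level of NRF2 protein, which RNA-seq does not measure. The oxidative pentose phosphate pathway supplies NADPH to the glutathione and thioredoxin reductases, and PGD is among the genes NRF2 is known to act on.

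MUC1, the target of the hairpin, was measured first as a check on the labels. Its counts in QGP-1 cells were 274, 251 and 281 with vehicle and 34, 41 and 32 with DOX. In BON-1 cells they were 580, 467 and 281 with vehicle and 23, 51 and 78 with DOX. All DOX libraries lay below all vehicle libraries of their line, with log2 fold changes of −2.91 and −2.79. The neuroendocrine label was checked against 10 markers. SCG2, a granule protein, led in QGP-1 cells with a mean of 2990 CPM (the deposited counts scaled to library size, with TMM factors, within a line) and CHGA, chromogranin A, in BON-1 cells with 5520 CPM, whereas the transcription factor genes NEUROD1 in QGP-1 cells and ISL1 in BON-1 cells were at 0 in all 6 libraries.

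Within libraries, levels were compared between genes per length, as TPM. In QGP-1 cells with vehicle the order by median was NQO1 at 116 TPM, NFE2L2 at 40.2, TXNRD1 at 36.1, PGD at 17.1, GCLC at 13.4, SRXN1 at 8.52, KEAP1 at 5.04, GCLM at 3.85 and HMOX1 at 0.175. The library ranges of NFE2L2 and TXNRD1 overlapped, as did those of KEAP1 and GCLM. In BON-1 cells with vehicle the order was NQO1 at 206 TPM, GCLC at 82.3, NFE2L2 at 64.4, TXNRD1 at 63.2, PGD at 35.4, SRXN1 at 12.6, KEAP1 at 10.6, GCLM at 8.99 and HMOX1 at 0.639. There the range of TXNRD1 overlapped those of its neighbours NFE2L2 and GCLC, and the ranges of SRXN1, KEAP1 and GCLM overlapped as well. NQO1, a quinone reductase that uses NADPH, was thus the most abundant member in both lines, and HMOX1, heme oxygenase 1, the least.

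The comparison of DOX with vehicle asks how these transcripts differ when MUC1 is silenced. In QGP-1 cells, NQO1, TXNRD1, SRXN1 and PGD were lower with DOX, with log2 fold changes of −0.44 to −0.35, and no member was higher. In BON-1 cells PGD was again lower, but NQO1 was higher, and the other 7 members did not pass the test. PGD was the only member lower in both lines, and NQO1 the only one past the threshold in opposite directions. Calls were made by edgeR's quasi-likelihood test on counts at a Benjamini-Hochberg adjusted p below 0.05 over all genes. In QGP-1 cells 4 of 9 members were called lower against a background of 17.7% of 15089 genes, and 0 of 9 higher against 17.3%. At an unadjusted p under 0.05 the number of members higher was also 0, and DESeq2 called 0 of them higher. In BON-1 cells 1 of 9 was lower against 18.3% of 14625 genes and 1 of 9 higher against 17%. In either direction these were 4 of 9 against 35% and 2 of 9 against 35.3%. Both lines tested 13535 genes, of which 7.23% were lower in each, as was 1 member, and 6.88% higher in each, as were 0 members (0 also at an unadjusted p under 0.05 and by DESeq2), while 2.69% were called in opposite directions, as was 1 member. CPM of the groups did not overlap for 7 of 9 members in QGP-1 cells against 46.7% of genes (6 with DOX below, against 23.2%, and 1 above, against 23.5%) and for 2 of 9 in BON-1 cells against 46.3% (1 below, against 23.9%, and 1 above, against 22.4%). The median log2 fold change of the 9 was −0.35 in QGP-1 cells, where that of all genes was −0.012, and −0.022 in BON-1 cells, where that of all genes was −0.010.

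**Figure D1:**
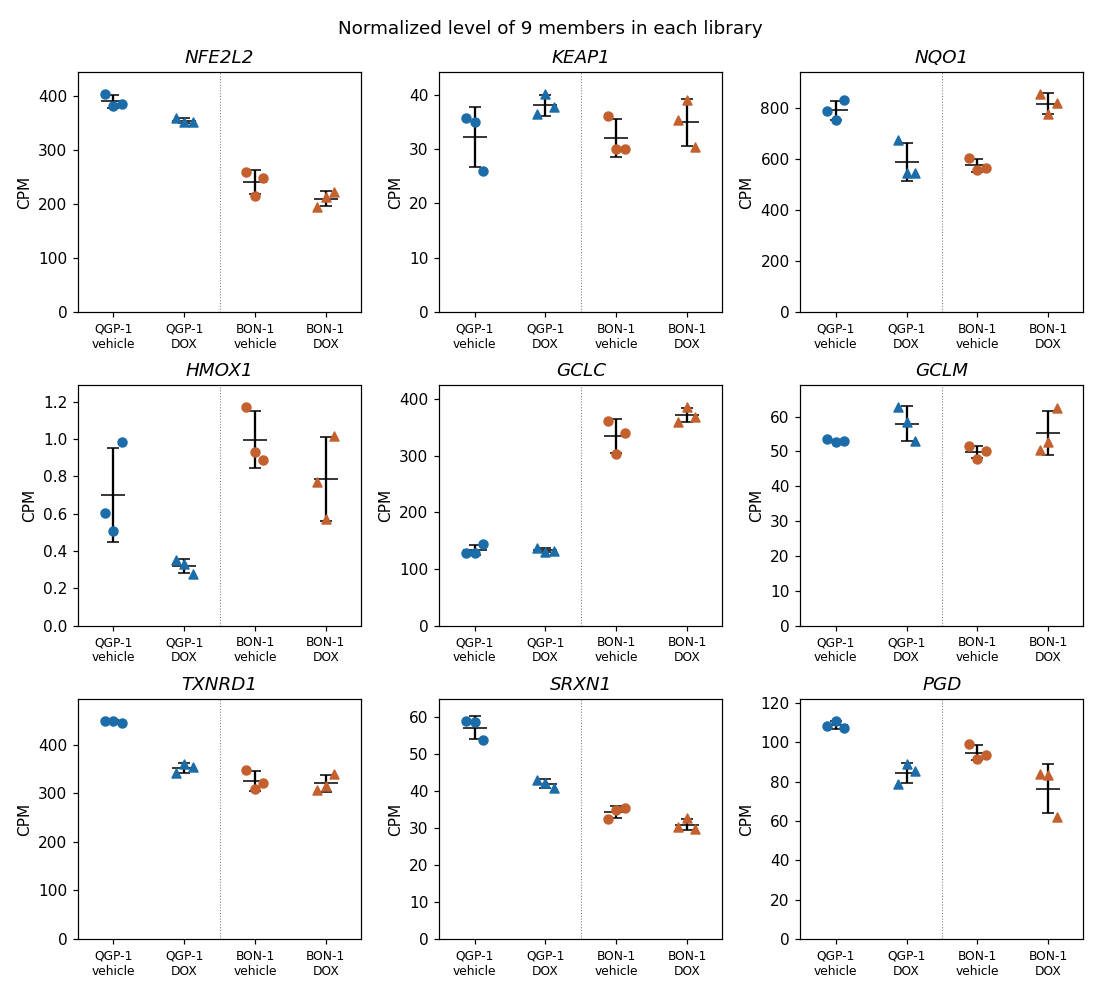
Level of each member in CPM (y axis, linear, from 0) in the 12 libraries, vehicle as circles and DOX as triangles, QGP-1 in blue and BON-1 in orange; horizontal lines and bars show mean ± SD of 3 libraries. CPM was scaled within each line, so levels compare within a line. NQO1 lies at 755 to 831 CPM with vehicle and 544 to 675 with DOX in QGP-1 cells, and at 559 to 604 against 777 to 857 in BON-1 cells.

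On the deposited TPM, before the median of all genes was taken off, the 4 members lower in QGP-1 cells had positive values. RN7SK, RN7SL1 and RN7SL2, small noncoding RNAs, took up 71.2% to 80.3% of the TPM of QGP-1 libraries and 50.9% to 74.3% of those of BON-1 libraries. Their share was lower with DOX in all 3 QGP-1 libraries. In BON-1 cells it was 65.6%, 50.9% and 58.8% with vehicle and 74.3%, 70.4% and 53.4% with DOX, so that DOX replicate 3 stood apart from the other DOX libraries. NQO1 had 354 TPM in that library against 179 and 202 TPM in the others. On log2(TPM + 1) the median fold change of all genes moved to 0.59 in QGP-1 and −0.31 in BON-1 cells. HMOX1 lay under the minimum mean of 1 TPM in both lines, so that 8 of the 9 members were tested on TPM with this filter. Unshifted, limma called 0 of the 8 lower (0.862% of all 10561 genes) and 7 higher (86.8% of all genes) in QGP-1 cells, so that the share of members higher is that of the background. The 7 were NFE2L2, KEAP1, NQO1 (0.30), GCLC, GCLM, TXNRD1 (0.38) and PGD (0.35), while SRXN1 at 0.27 missed the threshold (limma adjusted p = 0.0501). Relative to that median the same fit gave −0.29 for NQO1, −0.21 for TXNRD1, −0.33 for SRXN1 and −0.24 for PGD, and called none of them (2 of the 8 members had an unadjusted p under 0.05, and edgeR on counts called 4 of 9), where 12.6% of all genes were lower and 10.5% higher. With the 3 noncoding RNAs left out of TPM, values relative to the median were −0.40 for NQO1, −0.31 for TXNRD1, −0.40 for SRXN1 and −0.33 for PGD. Their limma adjusted p ran from 0.00616 to 0.0143, and the share of all genes called is not given for this fit. With these RNAs but no filter on TPM, values relative to the median were 0.074, 0.16, 0.038 and 0.12 in the same order. In BON-1 cells limma on TPM called 0 of 8 members (1.92% of all genes were lower and 0.243% higher), with 0 at an unadjusted p under 0.05, against 2 by edgeR on counts, and NQO1 stood at 0.14 (limma adjusted p = 0.864). This count rests on DOX replicate 3. Without it, a setting added after the data were seen, limma on unshifted TPM called 4 of 8 members lower, where 42.3% of all 11875 genes were lower and 0.429% higher, so that nothing is read from the count. These were NFE2L2 (−0.88), TXNRD1 (−0.71), SRXN1 (−0.71) and PGD (−0.81), while NQO1 turned to −0.16 (limma adjusted p = 0.607), and the median of all genes was −0.56. Relative to that median NQO1 was at 0.40 and limma called 0 members (0 also at an unadjusted p under 0.05), beside 1.12% of all genes lower and 1.15% higher. The changes below are those of TMM-scaled counts, relative to most other genes. A sign said to turn on unshifted TPM is not relative to other genes, since their median moved too.

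NFE2L2 had 404, 381 and 386 CPM with vehicle and 359, 351 and 351 CPM with DOX in QGP-1 cells. The DOX libraries were all below the vehicle libraries, which held for 23.2% of genes tested. The log2 fold change of −0.14 ± 0.06 (SE) did not pass the threshold (edgeR adjusted p = 0.0888), and on unshifted TPM its sign turned (0.59). The median of all genes there was also 0.59. In BON-1 cells the levels were 259, 216 and 249 CPM against 194, 213 and 222 CPM. Here the groups overlapped, and the change of −0.20 ± 0.08 also missed the threshold (edgeR adjusted p = 0.0539). It passed without vehicle replicate 2 (−0.28) and without DOX replicate 3 (−0.26). All libraries gave a call with library size in place of TMM (−0.24, edgeR adjusted p = 0.0161), with no filter on low counts (−0.22, edgeR adjusted p = 0.0226) and with a minimum of 10 counts in every library (−0.21, edgeR adjusted p = 0.0338). NFE2L2 lies at chr2:177218667-177392756 on the minus strand of GRCh38 (GENCODE 44), where its exons overlap those of AGPS and HNRNPA3 on the other strand. How the counts used strand is not given in the sources used here, so reads of these genes may be mixed.

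KEAP1, the repressor of NRF2, lies at chr19:10486125-10503558. In QGP-1 cells it had 35.8, 34.9 and 25.9 CPM with vehicle and 36.3, 40.2 and 37.6 CPM with DOX. The DOX libraries were all higher, which held for 23.5% of genes tested, although the nearest pair stood at 35.8 and 36.3 CPM. The change was 0.24 ± 0.11 (edgeR adjusted p = 0.114), and 0.10 without vehicle replicate 3, the lowest library. In BON-1 cells the levels were 36.0, 30.0 and 30.1 CPM against 35.2, 39.1 and 30.3 CPM, and the overlapping groups gave 0.12 ± 0.11 (edgeR adjusted p = 0.430), a sign that turned on unshifted TPM (−0.22). Relative to the median of all genes on TPM the change was 0.09. On counts, leaving out a BON-1 library gave 0.02 to 0.21.

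NQO1 lies at chr16:69706996-69726668 on the minus strand. Its level in QGP-1 cells was 790, 755 and 831 CPM with vehicle and 675, 546 and 544 CPM with DOX. All DOX libraries were below all vehicle libraries, with replicate 1 nearest to them. The log2 fold change was −0.43 ± 0.08 (edgeR adjusted p = 0.00135), a fall of the mean from 792 ± 38.1 to 588 ± 74.9 CPM (SD, n = 3). In BON-1 cells the 3 vehicle libraries held 604, 559 and 564 CPM and the DOX libraries 857, 777 and 822 CPM. There all DOX libraries were above, and the change was 0.51 ± 0.08 (edgeR adjusted p = 9.44e-06). GENCODE has exons of an unnamed gene (ENSG00000261602) opposite those of NQO1. Both calls remained in each of the 6 fits of their line that left out a library.

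HMOX1, which opens the heme ring and lies at chr22:35380361-35394214, was near the limit of detection. QGP-1 libraries had 23, 22 and 49 counts with vehicle and 17, 13 and 12 with DOX, or 0.603, 0.509 and 0.985 CPM against 0.352, 0.330 and 0.279 CPM. The groups did not overlap, yet at these counts the change of −1.13 ± 0.48 missed the threshold (edgeR adjusted p = 0.0827). BON-1 libraries had 33, 21 and 16 counts with vehicle and 12, 11 and 20 with DOX, with overlapping levels and a change of −0.35 ± 0.47 (edgeR adjusted p = 0.600) that ran from −0.61 to −0.16 when a library was left out.

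GCLC and GCLM encode the catalytic and the modifier subunit of glutamate-cysteine ligase, which makes the first bond of glutathione. GCLC (chr6:53497341-53616970) had 129, 128 and 145 CPM with vehicle and 137, 131 and 132 CPM with DOX in QGP-1 cells. In BON-1 cells it had 362, 303 and 340 CPM against 361, 386 and 370 CPM. GCLM (chr1:93885199-93909456) had 53.4, 52.7 and 52.9 CPM against 62.7, 58.4 and 52.9 CPM in QGP-1 cells, and 51.4, 47.9 and 50.2 CPM against 50.5, 52.7 and 62.4 CPM in BON-1 cells. Groups overlapped in each case. Approximate 95% intervals of the log2 fold change ran from −0.14 to 0.13 for GCLC and from −0.03 to 0.29 for GCLM in QGP-1 cells, and from −0.0018 to 0.31 and −0.03 to 0.33 in BON-1 cells. They were taken from the SE and the normal distribution, and so are narrower than the edgeR test would give. Exons of GCLC overlap the antisense gene GCLC-AS1. Without BON-1 vehicle replicate 1 the GCLC change was 0.21 and passed (edgeR adjusted p = 0.0458), while on unshifted TPM the BON-1 values of both genes turned negative (−0.21 and −0.19) and in QGP-1 cells the sign of GCLC turned (0.69). Relative to the median of all genes on TPM, GCLC was at 0.11 and GCLM at 0.12 in BON-1 cells, and GCLC at 0.10 in QGP-1 cells.

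TXNRD1, the cytosolic thioredoxin reductase, lies at chr12:104215779-104350307. In QGP-1 cells it had 449, 449 and 445 CPM with vehicle and 341, 361 and 355 CPM with DOX. The groups were far apart compared with their spread, and the change was −0.35 ± 0.06 (edgeR adjusted p = 0.000653). In BON-1 cells 347, 308 and 320 CPM with vehicle stood against 306, 315 and 340 CPM with DOX, and the change was −0.02 ± 0.08 (edgeR adjusted p = 0.848).

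SRXN1, sulfiredoxin, which restores overoxidized peroxiredoxins, lies at chr20:646615-653200. Its level was 59.1, 58.8 and 53.7 CPM with vehicle and 43.1, 42.3 and 40.7 CPM with DOX in QGP-1 cells. The DOX libraries were all lower, with a change of −0.44 ± 0.08 (edgeR adjusted p = 0.000623). In BON-1 cells it was 32.6, 34.9 and 35.6 CPM against 30.3, 32.8 and 29.8 CPM. These groups overlapped, and the change was −0.15 ± 0.10 (edgeR adjusted p = 0.266).

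PGD, 6-phosphogluconate dehydrogenase, which forms NADPH, lies at chr1:10398592-10420511 and has 1 pseudogene named after it in GENCODE, so that shared reads are possible. In QGP-1 cells its level was 108, 111 and 107 CPM with vehicle and 79.0, 89.0 and 85.3 CPM with DOX. The change was −0.37 ± 0.07 with no overlap (edgeR adjusted p = 0.00121). In BON-1 cells it was 99.4, 91.7 and 93.5 CPM against 83.9, 83.5 and 62.2 CPM. The groups did not overlap here either, and the change was −0.31 ± 0.09 (edgeR adjusted p = 0.0112). DOX replicate 3 was the lowest of these libraries, and without it the change was −0.20 (edgeR adjusted p = 0.0615).

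**Figure D2:**
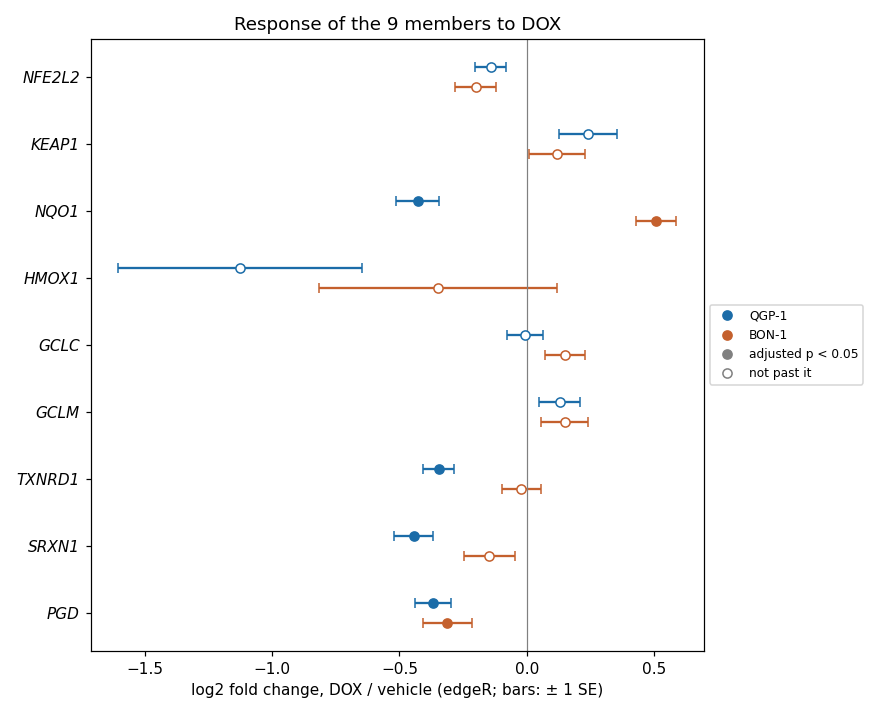
Log2 fold change of DOX over vehicle (x axis) for the 9 members, with bars of ± 1 SE, QGP-1 in blue and BON-1 in orange; filled points passed an edgeR adjusted p of 0.05. NQO1 lies at −0.43 and 0.51 on either side of 0, while PGD lies at −0.37 and −0.31. On unshifted TPM the QGP-1 values of NQO1, TXNRD1, SRXN1 and PGD turn positive, below the median of all genes there (0.59).

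Promoters were read for the letters TGACNNNGC, the core of the antioxidant response element, or their reverse complement GCNNNGTCA, in RefSeq windows of 300 bases (250 before to 50 after the start, GRCh38.p14). Of 35116 windows in all, 13.3% held a match. For the members, windows were matched for 8 of 9 genes, and 5 of these 11 windows held one, in GCLM, TXNRD1 (both windows), KEAP1 (1 of 2 windows) and PGD. Those of PGD and TXNRD1, lower in QGP-1 cells, and GCLM, called in neither line, are printed to set the match beside the values (for TXNRD1 the window of its first start), with the matching letters in capitals.
PGD, chr1:10398814-10399113, plus strand: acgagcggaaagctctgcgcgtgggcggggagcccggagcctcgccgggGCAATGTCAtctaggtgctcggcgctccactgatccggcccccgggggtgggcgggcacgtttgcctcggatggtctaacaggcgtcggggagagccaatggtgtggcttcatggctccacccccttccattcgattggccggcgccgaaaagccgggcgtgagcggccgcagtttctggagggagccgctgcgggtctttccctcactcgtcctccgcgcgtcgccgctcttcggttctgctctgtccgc
TXNRD1, chr12:104215529-104215828, plus strand: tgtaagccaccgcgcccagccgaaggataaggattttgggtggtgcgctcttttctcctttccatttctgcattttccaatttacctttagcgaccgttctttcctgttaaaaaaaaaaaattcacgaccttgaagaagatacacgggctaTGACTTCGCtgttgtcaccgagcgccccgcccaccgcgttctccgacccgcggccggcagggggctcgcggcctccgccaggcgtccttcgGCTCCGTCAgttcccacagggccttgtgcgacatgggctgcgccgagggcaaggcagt
GCLM, chr1:93909381-93909680, minus strand: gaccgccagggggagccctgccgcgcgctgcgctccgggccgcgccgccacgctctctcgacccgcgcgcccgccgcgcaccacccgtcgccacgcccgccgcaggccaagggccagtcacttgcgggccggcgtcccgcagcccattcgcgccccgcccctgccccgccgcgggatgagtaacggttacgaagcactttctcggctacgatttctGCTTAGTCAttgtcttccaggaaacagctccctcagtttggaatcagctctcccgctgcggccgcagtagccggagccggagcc
The match lay 201 bases before the start in PGD, at 99 and 8 bases before it in the TXNRD1 window printed, 102 bases before it in the other TXNRD1 window (chr12:104286782-104287081), and 34 bases before it in GCLM. No match was found in the windows of NFE2L2, NQO1, GCLC and SRXN1, which says only that these letters were not in those windows.

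PGD was not alone among the pentose phosphate genes. Of 10 in a list of this pathway, 9 were tested, and in QGP-1 cells 5 were lower and 1 was higher, while 3 were lower and 0 higher in BON-1 cells. The background was 17.7% lower and 17.3% higher of all genes in QGP-1 cells, and 18.3% and 17% in BON-1 cells. In either direction 66.7% and 33.3% of the list were called, the latter near the 35.3% of all genes. Medians were −0.18 and −0.18, where those of all genes were −0.012 and −0.010. On unshifted TPM all 5 of the genes lower in QGP-1 cells turned positive, though each stood below the median of all genes there (0.59). PGLS, a lactonase, was at −0.62 ± 0.16 in QGP-1 cells (edgeR adjusted p = 0.00706) and at −0.46 ± 0.21 in BON-1 cells (edgeR adjusted p = 0.0911). Over the BON-1 fits with a library left out its value ran from −0.70 to −0.25, and it passed without vehicle replicate 3 (−0.64, edgeR adjusted p = 0.0236), without DOX replicate 1 (−0.70, edgeR adjusted p = 0.0213) and with no filter on low counts (−0.48, edgeR adjusted p = 0.0339).

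In the non-oxidative branch, TALDO1, transaldolase, was lower in both lines and without overlap. Its change was −0.60 ± 0.06 in QGP-1 cells (edgeR adjusted p = 1.41e-05) and −0.46 ± 0.09 in BON-1 cells (edgeR adjusted p = 0.000115). TKT, transketolase, was lower in QGP-1 cells (−0.35 ± 0.09), a call lost without vehicle replicate 1 (−0.27, edgeR adjusted p = 0.0501), and was at −0.17 ± 0.09 in BON-1 cells, where leaving out a library gave −0.26 to −0.05 and the call was made without vehicle replicate 2 (−0.26, edgeR adjusted p = 0.0361). RPIA, ribose-5-phosphate isomerase, was the one member of the list that was higher in QGP-1 cells, at 18.8, 18.4 and 19.3 CPM with vehicle and 26.4, 29.8 and 30.7 CPM with DOX, a change of 0.62 ± 0.09 (edgeR adjusted p = 0.00021). In BON-1 cells RPIA stood at 0.04 ± 0.12, with a sign that turned on unshifted TPM (−0.28). RPE, the epimerase, and H6PD, the enzyme of the endoplasmic reticulum, were called in neither line. Of the synthetases that use ribose phosphate, PRPS1 was lower in BON-1 cells (−0.26 ± 0.09), a call lost without vehicle replicate 2, vehicle replicate 3 or DOX replicate 2 (−0.25 each). PRPS2 was at the threshold in QGP-1 cells (−0.18 ± 0.07, edgeR adjusted p = 0.0498) and lost the call in all 6 fits that left out a library (−0.21 to −0.15). TKTL1 had 0 to 4 counts in the QGP-1 libraries and 0 in those of BON-1, and was not tested.

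**Figure D3:**
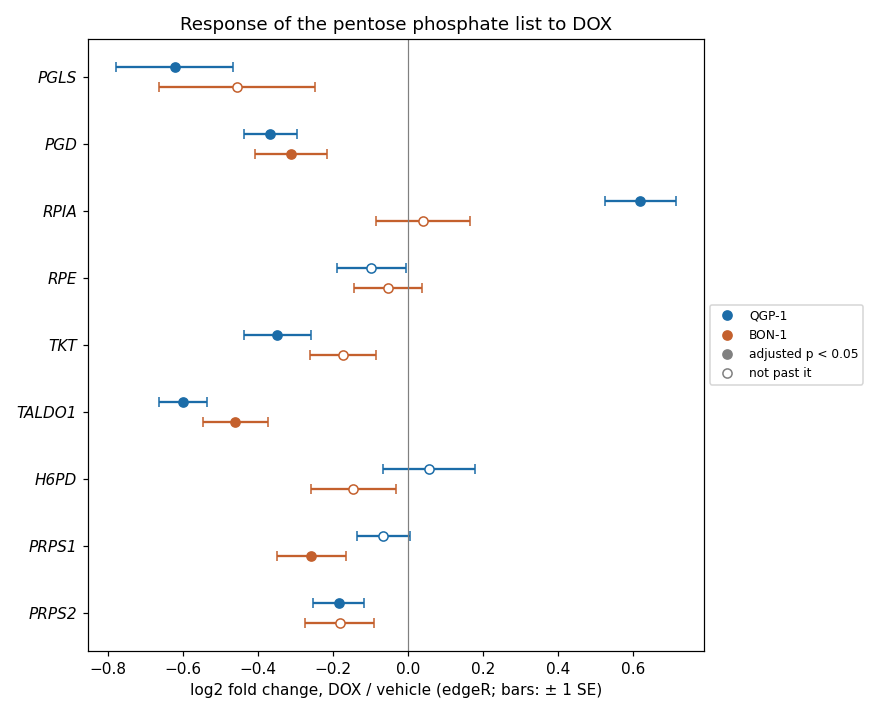
Log2 fold change of DOX over vehicle (x axis) for the 9 pentose phosphate genes tested, with bars of ± 1 SE; filled points passed an edgeR adjusted p of 0.05. PGD and TALDO1 are filled and left of 0 in both lines, and RPIA is to the right at 0.62 in QGP-1 cells. On unshifted TPM the 5 genes lower in QGP-1 cells turn positive, below the median of all genes there (0.59).

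To ask whether a response differed between the lines, line and DOX were given an interaction term in 1 fit of the 12 libraries. Of the 9 members 2 passed, both with a higher response in BON-1, where 16.7% of 16598 genes passed, 8.8% higher and 7.92% lower. The response of NQO1 was higher in BON-1 by 0.95 ± 0.12 (edgeR adjusted p = 4.70e-06) and stayed past the threshold in all 12 fits that left out a library. On the joint scale its mean was 819 CPM in QGP-1 with vehicle, 786 in BON-1 with DOX, 612 in QGP-1 with DOX and 555 in BON-1 with vehicle, and the library ranges overlapped between the upper pair and between the lower pair, but not between the pairs. The response of TXNRD1 differed by 0.33 ± 0.10 (edgeR adjusted p = 0.0276). This call was lost in 7 of the 12 fits, those without QGP-1 vehicle replicate 1 or 2, QGP-1 DOX replicate 1, BON-1 vehicle replicate 2 or 3, or BON-1 DOX replicate 2 or 3, with differences of 0.26 to 0.33 and edgeR adjusted p of 0.0530 to 0.0882, and with library size in place of TMM (0.26, edgeR adjusted p = 0.0509). For SRXN1 the difference of 0.31 ± 0.12 missed the threshold (edgeR adjusted p = 0.0866), and for PGD it was 0.06 ± 0.13 (edgeR adjusted p = 0.797). Among the pentose phosphate genes RPIA passed, at −0.57 ± 0.17 (edgeR adjusted p = 0.0195), but not without BON-1 vehicle replicate 1 (−0.44).

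The lines also differed before DOX. Between vehicle-treated BON-1 and QGP-1 cells 74.9% of genes passed the test, 37.5% lower and 37.5% higher in BON-1, and 6 of the 9 members did, 5 lower and 1 higher. Cell line and medium cannot be told apart here. GCLC was higher in BON-1 cells, with a mean of 323 ± 29.1 CPM against 138 ± 11.5 on the joint scale (log2 difference 1.25 ± 0.08). SRXN1 was lower (−0.82 ± 0.09), as were NFE2L2 (−0.77 ± 0.08), NQO1 (−0.54 ± 0.08), TXNRD1 (−0.54 ± 0.07) and PGD (−0.28 ± 0.09). These 5 directions are those of TMM-scaled counts and turned on the deposited TPM, where the vehicle medians given above were higher in BON-1 cells for each of the 5 (206 against 116 TPM for NQO1), as for GCLC. The difference between lines was not tested on TPM. RN7SK, RN7SL1 and RN7SL2 took up 78.8% to 80.3% of the TPM of QGP-1 vehicle libraries and 50.9% to 65.6% in BON-1. Such a gap moves the TPM of all other genes together, so nothing is read from these turns. The call of PGD was lost with library size in place of TMM (−0.17). KEAP1, HMOX1 and GCLM did not pass.

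Other genes of the pathway were read from lists. These lists share genes with each other and with the members, so their counts are not independent. The thioredoxin list holds TXNRD1 and SRXN1, the glutathione list GCLC and GCLM, and the heme and iron list HMOX1. Among genes of the other targets, TALDO1, GSR, MGST1, SLC7A11, PRDX1, ME1, FTL and FTH1 are each in a further list. Among 12 regulators and partners of NRF2, 1 was lower and 6 were higher in QGP-1 cells, and 0 were lower and 2 higher in BON-1 cells, or 58.3% and 16.7% in either direction, where 35% and 35.3% of all genes were called. In BON-1 cells 2 of 12 higher is near the 17% of all genes. The 2 higher in both were SQSTM1, the autophagy receptor that competes for KEAP1 (0.39 ± 0.07 and 0.89 ± 0.08), and GSK3B, a kinase that marks NRF2 for degradation (0.43 ± 0.07 and 0.34 ± 0.08, the latter turning to −0.027 on unshifted TPM). Among other described NRF2 targets, 16 of 27 were lower and 5 higher in QGP-1 cells, and 9 of 28 were lower and 10 higher in BON-1 cells, or 77.8% and 67.9% in either direction. Beside these stand 17.7% of all genes lower and 17.3% higher in QGP-1 cells, and 18.3% and 17% in BON-1 cells. Medians were −0.33 and −0.11. AKR1C3, an aldo-keto reductase whose close relatives AKR1C1 and AKR1C2 may share its reads, was lower in both (−1.50 ± 0.10 and −0.37 ± 0.09), as was MGST1, a microsomal glutathione transferase (−0.56 ± 0.08 and −1.13 ± 0.20).

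Glutathione genes were lower for 7 of 20 and higher for 1 in QGP-1 cells, and lower for 3 and higher for 4 of 20 in BON-1 cells. These were 40% and 35% in either direction, near the 35% and 35.3% of all genes, although 7 of 20 lower in QGP-1 cells stands beside 17.7%. SLC7A11, the cystine importer, was higher in both lines (0.56 ± 0.06 and 0.82 ± 0.08), and GSR, glutathione reductase, lower in both (−0.29 ± 0.07 and −0.26 ± 0.08), though in BON-1 cells not without vehicle replicate 1 (−0.20). In the thioredoxin and peroxiredoxin list 8 of 16 were lower and 1 higher in QGP-1 cells, and 3 lower and 4 higher in BON-1 cells. Those lower in QGP-1 cells included the members TXNRD1 and SRXN1. Called in either direction were 56.2% and 43.8%. Of all genes 17.7% were lower and 17.3% higher in QGP-1 cells, and 18.3% and 17% in BON-1 cells, so that 3 of 16 lower in BON-1 cells is at the background. TXNIP, the inhibitor of thioredoxin, was higher in both (0.47 ± 0.08 and 0.95 ± 0.08), and PRDX5 and PRDX4, peroxiredoxins, were lower in both (PRDX5 −1.05 and −0.63, PRDX4 −0.58 and −0.28). The BON-1 call of PRDX5 was lost without vehicle replicate 2 (−0.45) and that of PRDX4 without vehicle replicate 2 or 3 or DOX replicate 2 or 3 (−0.27 to −0.22), while without DOX replicate 1 the value of PRDX4 was −0.43. On all libraries, the BON-1 call of PRDX4 was also lost with both lines in 1 fit (−0.27, edgeR adjusted p = 0.0710).

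For other sources of NADPH, 5 of 13 were lower and 2 higher in QGP-1 cells, and 4 lower and 4 higher in BON-1 cells, or 53.8% and 61.5% in either direction, against 35% and 35.3% of all genes (17.7% lower and 17.3% higher, and 18.3% and 17%). MTHFD1, of the folate cycle, was lower in both (−0.30 and −0.68), and MTHFD2L higher in both (0.33 and 0.51), though in QGP-1 cells not without vehicle replicate 1, vehicle replicate 2 or DOX replicate 3 (0.27 to 0.32). Superoxide and peroxide genes were lower for 3 of 4 in QGP-1 cells and higher for 1 of 3 in BON-1 cells, beside 17.7% and 17% of all genes. In the heme and iron list 3 of 8 were lower and 2 higher in QGP-1 cells, and 1 lower and 3 higher in BON-1 cells, beside 17.7% and 17.3%, and 18.3% and 17%, of all genes. The ferritin chains parted, with FTL higher (0.29 and 0.27) and FTH1 lower (−0.30 and −0.26) in both lines, but GENCODE names 16 pseudogenes of FTL and 25 of FTH1, and their reads are uncertain. TFRC, the transferrin receptor, was higher in both (0.22 and 0.26), and on unshifted TPM the BON-1 values of FTL and TFRC turned negative (−0.086 and −0.11). The BON-1 call of FTL was lost without vehicle replicate 2 (0.21) or 3 (0.24). That of TFRC was lost in BON-1 cells without vehicle replicate 3 (0.21), and in QGP-1 cells without vehicle replicate 1 (0.19), vehicle replicate 2 (0.21) or DOX replicate 1 (0.18). In QGP-1 cells, unshifted TPM turned the sign of GSR, PRDX4, MTHFD1, MGST1 and FTH1, each to a value below the median of all genes there (0.59).

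As for NFE2L2, exons of other tested genes on the opposite strand overlap those of SQSTM1 (MGAT4B and MRNIP), PRDX1 (MMACHC), NADK2 (SKP2), MTHFD1 (ZBTB25), FTH1 (BEST1) and RPE (KANSL1L), so that the values of these genes may mix reads. On the same strand, exons of unnamed genes overlap those of MUC1, NFE2L2, GCLC and SRXN1, and exons of PIGBOS1 those of RAB27A, named below. Reads may be mixed there whatever the strand setting. On the opposite strand, exons of MPC2 overlap those of DCAF6, and exons of PIGB those of RAB27A. Besides PGD, FTL and FTH1, GENCODE names 12 pseudogenes of RPLP0, 6 of RPE, 3 of GLRX and 2 each of PRPS1 and SLC25A39. It names 1 each of RPIA, SQSTM1, PRDX1, PRDX4, PRDX5 and MTHFD1.

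The list counts also changed with the unit. On unshifted TPM limma called 9257 of 10561 genes in QGP-1 cells, 9166 of them higher. Higher there were 6 of 8 pentose phosphate genes, 11 of 12 regulators, 16 of 25 other targets, 15 of 18 glutathione genes, 9 of 14 in the thioredoxin list, 12 of 12 other sources of NADPH, 3 of 4 superoxide and peroxide genes and 4 of 7 heme and iron genes. Lower were 4 other targets, 1 gene of the thioredoxin list and 1 of the heme and iron list. Relative to the median of all genes, other targets gave 9 lower and 3 higher, the thioredoxin list 4 and 1, the heme and iron list 3 and 2, pentose phosphate and glutathione genes 2 and 1 each, regulators 1 and 3, and superoxide and peroxide genes 1 lower, while no other source of NADPH was called by limma (0 at an unadjusted p under 0.05, and 7 by edgeR on counts). Of all 10561 genes, 12.6% were lower and 10.5% higher in QGP-1 cells in the fit relative to the median. In BON-1 cells, where limma called 258 of 11954 genes, the calls on unshifted TPM in these lists were 1 other target and 1 glutathione gene, both lower.

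Of the 98 list genes tested in both lines, 8 were called in opposite directions, NQO1 among them, where 2.69% of all genes tested in both were. With NQO1, AKR1C1 (−1.07 ± 0.14 in QGP-1, 0.37 ± 0.11 in BON-1) and PRDX1, a peroxiredoxin (−0.37 ± 0.10 and 0.36 ± 0.08), were lower in QGP-1 and higher in BON-1 cells in all 6 count fits of each line that left out a library, though on unshifted TPM the QGP-1 values of NQO1 and PRDX1 turned positive (0.30 and 0.36) and the BON-1 value of PRDX1 stood at −0.00062. GLRX, glutaredoxin (−0.31 and 0.88), ME1, malic enzyme (−0.22 and 0.43), and NADK2, the mitochondrial NAD kinase (−0.26 and 0.35), had the same pattern, with QGP-1 values that turned positive on unshifted TPM (0.37, 0.49 and 0.35). These, like those of NQO1 and PRDX1, lay below the median of all genes there (0.59). The BON-1 value of NADK2 stood at −0.0046 on unshifted TPM. On counts, the BON-1 value of ME1 was 0.29 without DOX replicate 3. The QGP-1 calls of GLRX, ME1 and NADK2 remained in 1, 1 and 0 of the 6 fits that left out a library, that of GLRX without DOX replicate 3 and that of ME1 without DOX replicate 1, with changes of −0.39 to −0.23 for GLRX, −0.26 to −0.16 for ME1 and −0.29 to −0.23 for NADK2 over the 6. ABCC1, a transporter of glutathione conjugates (0.30 and −0.24), and NR0B1, a nuclear receptor (0.53 and −1.67), went the other way. On all libraries the QGP-1 call of NR0B1 was lost with both lines in 1 fit (0.53, edgeR adjusted p = 0.138), and its BON-1 call with DESeq2 (−1.66, adjusted p = 0.0974) and with library size in place of TMM (−1.71, edgeR adjusted p = 0.0506). In the same way the QGP-1 calls of GLRX and NADK2 were lost with library size (−0.29 and −0.24), that of NADK2 also with no filter on low counts (−0.25), that of ME1 with both lines in 1 fit (−0.22), and the BON-1 call of ABCC1 with both lines in 1 fit (−0.23). The BON-1 calls of ABCC1 and NR0B1 remained in 3 and 2 of 6 fits that left out a library, and the QGP-1 call of ABCC1 in 4. ABCC1 was lost in BON-1 cells without vehicle replicate 1 (−0.16), vehicle replicate 2 (−0.25) or DOX replicate 1 (−0.23), and in QGP-1 cells without vehicle replicate 3 (0.23) or DOX replicate 2 (0.27). NR0B1 was lost without vehicle replicate 1 (−1.35), vehicle replicate 2 (−1.71), DOX replicate 1 (−1.63) or DOX replicate 3 (−1.07), and without DOX replicate 2 its value was −2.90. NR0B1 had 43, 24 and 13 counts with vehicle and 5, 14 and 0 with DOX in BON-1 cells.

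**Figure D4:**
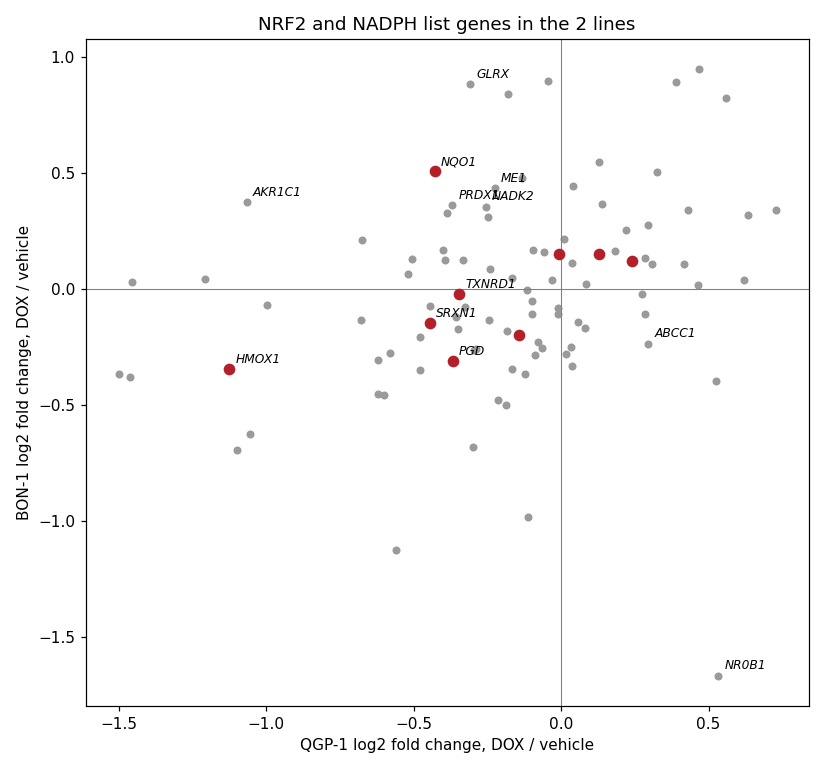
Log2 fold change of DOX over vehicle in QGP-1 (x axis) and BON-1 cells (y axis) for the 98 list genes tested in both lines, with the 9 members in red and the other list genes in grey. NQO1 (−0.43, 0.51) lies in the upper left with AKR1C1, PRDX1, GLRX, ME1 and NADK2, all of which except AKR1C1 turn positive in QGP-1 cells on unshifted TPM. Those values lie below the median of all genes there (0.59).

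The genes most like a member were sought as those with the smallest root mean square difference of log2 CPM, centred within each line, over the 12 libraries among 8967 genes. For NQO1 these were PRDX1 (0.0786), DCAF6 (0.0883) and RAB27A (0.0899), where the median gene was at 0.303. For PGD they were SLC25A39 (0.0548), RPLP0 (0.0624) and PUF60 (0.0689), with a median of 0.255. For NFE2L2 they were PPP1CC (0.0387), RRM1 (0.0451) and CEP41 (0.0457), with a median of 0.197.

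The neuroendocrine markers summed to 14879, 11505 and 13700 CPM with vehicle and 9465, 9659 and 9197 CPM with DOX in BON-1 cells. CHGA carried this difference, at 9328, 6535 and 8449 CPM with vehicle and 2973, 3129.7 and 2705 CPM with DOX (−1.46 ± 0.11). In BON-1 cells 2 of the 8 markers tested were lower (18.3% of all genes), CHGA and SYP (−0.34), and 2 were higher (17% of all genes), SCG2 (0.45) and SCG3 (0.27), where SYP and SCG3 were named after their values were seen. In QGP-1 cells 1 of 9 was lower (17.7% of all genes), PAX6 (−0.59), and 3 were higher (17.3% of all genes), CHGB (0.39), SCG3 (0.34) and ISL1 (0.42), which were also named after their values were seen. In QGP-1 cells the markers summed to 4571, 4277 and 4973 CPM against 5612, 5060 and 5715 CPM in QGP-1 cells. Markers of other cells were read beside them. Of 6 exocrine markers PRSS1, trypsinogen, was the most abundant, and the list summed to 129, 82.6 and 151 CPM with vehicle and 33.0, 28.9 and 40.0 CPM with DOX in QGP-1 cells, where CPA1 and CPB1 were at 0. In BON-1 cells it summed to 37.4, 45.9 and 36.1 CPM against 23.8, 19.6 and 27.0 CPM, with AMY2A and PNLIP at 0. The 5 leukocyte markers summed to 28.0, 28.0 and 26.0 CPM with vehicle and 57.4, 52.8 and 51.7 CPM with DOX in BON-1 cells, led by CD68, a lysosomal protein, with a mean of 37.9 CPM. In QGP-1 cells they summed to 10.5, 12.7 and 12.9 CPM against 21.0, 16.9 and 17.6 CPM, led by LYZ, lysozyme, with a mean of 14.1 CPM, and CD3E was at 0. Fibroblast markers summed to 2.68, 3.59 and 1.73 CPM with vehicle and 1.16, 1.29 and 1.14 CPM with DOX in QGP-1 cells, led by COL1A1, a collagen chain, which was lower (−1.16 ± 0.29). In BON-1 cells they summed to 5.40, 6.61 and 5.22 CPM against 11.5, 10.7 and 10.7 CPM, led by LUM, lumican, which was higher (1.01 ± 0.18). Endothelial markers summed to 0.862 to 1.60 CPM in QGP-1 cells, led by PECAM1, and to 32.4 to 41.4 CPM in BON-1 cells, led by KDR. Their part in the changes of the members was not tested. In bulk libraries fewer cells of a kind and less RNA per cell cannot be told apart.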

How the data were processed

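Poly(A) RNA libraries (TruSeq Stranded mRNA) of 12 cultures were sequenced by the authors and, per the labels, aligned with STAR to GRCh38. The counter, its strand setting and the STAR version are not given in the sources used here. The study's methods add a release number to the genome's name without saying whether it names the annotation. Raw counts per gene and TPM were deposited by the authors, in 1 table of each per line, and the authors' own tool for testing was DESeq2. The TPM tables do not list 2468 (QGP-1) and 2464 (BON-1) of the counted genes. Tests on counts used edgeR 4.0.16 under R 4.3.3 (filterByExpr, TMM, quasi-likelihood test, Benjamini-Hochberg adjustment over all genes), within each line (6 libraries) for DOX against vehicle, and in 1 fit of 12 libraries for the interaction and for the vehicle-treated lines. Values after ± are SE unless given as SD. Alternatives were DESeq2 1.42.0, library size in place of TMM, other filters, the replicate block, leaving out each library, and limma 3.58.1 on log2(TPM + 1) or log2(TPM + 0.1). For TPM, genes with a mean of at least 1 were kept. TPM relative to the median of all genes, edgeR without RN7SK, RN7SL1 and RN7SL2, and TPM without BON-1 DOX replicate 3 were added after the data were seen. With 3 against 3 an exact two-sided permutation test cannot go below 0.1.

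The members and the gene lists were chosen with earlier results of these data known. An item of the lists is not reported here, and the counts and medians of its lists leave it out. Named were the 9 members, MUC1, all pentose phosphate genes and, from each other list, the 4 genes with the largest mean absolute log2 fold change among those past the threshold in both lines, with those called in opposite directions, the 3 genes most like NFE2L2, NQO1 and PGD, and for marker lists the most abundant gene and the markers at 0. Cultures were in triplicate per the labels, and p-values measure the spread between these cultures. No pair of libraries agreed within sampling noise. On simulated data with 200 genes changed 2-fold, edgeR recovered 170 of 198 tested in QGP-1 cells with 8 false calls and 163 of 200 in BON-1 cells with 6, and for the interaction 123 of 196 with 3 false calls. The members called with DOX changed by less than 2-fold (log2 fold changes of −0.44 to −0.31, and 0.51). These shares thus do not tell how many changes of that size would be found. Promoter sequences came from RefSeq (GRCh38.p14) and gene positions from GENCODE 44 (GRCh38).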

Additional observations from a re-analysis of the deposited data

Results flagged for a closer look

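Responses to DOX that differed between the lines, by the interaction term in edgeR over the 12 libraries, were found for 15 of the 38 named genes tested. Some of these were named because the lines differed or because their changes were large, so nothing is read from that share. Values are the BON-1 minus the QGP-1 log2 fold change. Among the members, NQO1 differed by 0.95 (adjusted p = 4.70e-06 in edgeR), with opposite directions in the lines on counts, and TXNRD1 by 0.33 (adjusted p = 0.0276 in edgeR), a call lost in 7 of 12 fits that left out a library. Of the pentose phosphate genes, RPIA differed by −0.57.

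Genes called in opposite directions, besides NQO1, had differences of 1.45 for AKR1C1, 1.20 for GLRX, 0.74 for PRDX1, 0.67 for ME1, 0.62 for NADK2, −0.52 for ABCC1 and −2.22 for NR0B1. The value of NR0B1 rests on 0 to 43 counts in BON-1 libraries and lost its call without BON-1 vehicle replicate 1 (−1.91), and it was −3.52 without BON-1 DOX replicate 2. Genes that went the same way in both lines but by different amounts were AKR1C3 (1.14) and MGST1 (−0.56), lower in both, SQSTM1 (0.52) and TXNIP (0.49), higher in both, and MTHFD1 (−0.37), lower in both. The call of MTHFD1 was lost without QGP-1 vehicle replicate 1 or 2, QGP-1 DOX replicate 2, BON-1 vehicle replicate 1 or BON-1 DOX replicate 3 (−0.37 to −0.30). On unshifted TPM the value of NQO1 was positive in both lines (0.30 in QGP-1 and 0.14 in BON-1), so that the opposite directions did not hold there, and the BON-1 value was −0.16 without DOX replicate 3, while with RN7SK, RN7SL1 and RN7SL2 left out of TPM it was −0.11 and 0.47. Relative to the median of all genes on TPM, NQO1 was at −0.29 in QGP-1 and 0.45 in BON-1, and limma called neither. In that BON-1 fit limma called 114 of all 11954 genes. With the 3 RNAs also left out, NQO1 relative to the median was at −0.40 in QGP-1 (limma adjusted p = 0.00770) and 0.52 in BON-1 (limma adjusted p = 0.00126). Unshifted TPM also turned the QGP-1 values of TXNRD1, PRDX1, GLRX, ME1, NADK2, MGST1 and MTHFD1 positive. All of these lay below the median of all genes there (0.59). The difference of response was not fitted on TPM. Line and medium cannot be told apart in these differences.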

How the results depend on the processing

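The number of members past the threshold was 4 in QGP-1 cells, 2 in BON-1 cells, 2 for the difference of response and 6 for the difference between vehicle-treated lines. On the deposited counts, 4 QGP-1 members were lower under DESeq2, library size in place of TMM, the replicate block, both lines in 1 fit, and each of the 6 fits that left out a library. No count filter gave 5 (KEAP1 added, higher) and a minimum of 10 counts in every library gave 5 (HMOX1 added, lower). For BON-1 cells, library size, no count filter and 10 counts in every library each gave 3 (NFE2L2 added, lower), DESeq2, the replicate block and both lines in 1 fit gave 2, and leaving out a library gave 2 to 3. For the difference of response that range was 1 to 2, since TXNRD1 was lost in 7 of 12 such fits, and library size in place of TMM gave 1. The range was 6 to 7 for the vehicle-treated lines. Replicate numbers did not pair the libraries, since deviations of libraries with the same number correlated at −0.04 to 0.07 across genes. With the replicate block, 1 of 156 values moved across the threshold, TKT between vehicle-treated lines (0.20, adjusted p = 0.0312 in edgeR), and the 4 counts of members were 4, 2, 2 and 6.

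The unit of the values changed more. On deposited TPM, limma called 7 of the 8 members tested in QGP-1 cells with either pseudocount (1 or 0.1) and 6 without a filter, all higher, and 0 in BON-1 cells with either pseudocount or without a filter. Without a filter HMOX1 was tested as well. At an unadjusted p under 0.05, these BON-1 fits gave 0 members with a pseudocount of 1, 0 with 0.1 and 1 without a filter, and edgeR on counts called 2. Measured from the median gene, a setting added after the data were seen, the counts in QGP-1 cells were 0 with a pseudocount of 1, 2 with 0.1 and 5 without a filter (1 lower, HMOX1 at −0.28, and 4 higher), and those in BON-1 cells were 0 with a pseudocount of 1, 0 with 0.1 and 0 without a filter. Leaving BON-1 DOX replicate 3 out of TPM, also added later, gave 4 of 8 members in BON-1 cells, all lower, where 42.3% of all genes were, and 0 relative to the median (0 at an unadjusted p under 0.05). The median of all genes moved on TPM to 0.59 in QGP-1 and −0.31 in BON-1 cells. A sign that turned on unshifted TPM thus says nothing of a gene relative to the others. With RN7SK, RN7SL1 and RN7SL2 left out of TPM, the counts were 4 (all higher, with the median at 0.29) and 2, and relative to the median 4 (all lower) and 2. Shares of all genes called are not given for the fits with 0.1, without a filter or without these RNAs. Nothing is read from their counts of members.

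Signs that turned on TPM in QGP-1 cells, with a pseudocount of 1, were 0.59 for NFE2L2, 0.30 for NQO1, 0.69 for GCLC, 0.38 for TXNRD1, 0.27 for SRXN1, 0.35 for PGD, 0.084 for PGLS, 0.57 for RPE, 0.38 for TKT, 0.14 for TALDO1, 0.65 for PRPS1, 0.52 for PRPS2, 0.17 for MGST1, 0.36 for PRDX1, 0.49 for ME1, 0.37 for GLRX, 0.43 for GSR, 0.16 for PRDX4, 0.40 for MTHFD1, 0.35 for NADK2 and 0.44 for FTH1. Using 0.1 they were 0.60 for NFE2L2, 0.30 for NQO1, 0.73 for GCLC, 0.39 for TXNRD1, 0.29 for SRXN1, 0.37 for PGD, 0.087 for PGLS, 0.63 for RPE, 0.39 for TKT, 0.14 for TALDO1, 0.67 for PRPS1, 0.55 for PRPS2, 0.18 for MGST1, 0.36 for PRDX1, 0.51 for ME1, 0.42 for GLRX, 0.45 for GSR, 0.16 for PRDX4, 0.43 for MTHFD1, 0.47 for NADK2 and 0.44 for FTH1. Without a filter they were 0.59 for NFE2L2, 0.30 for NQO1, 0.69 for GCLC, 0.38 for TXNRD1, 0.27 for SRXN1, 0.35 for PGD, 0.084 for PGLS, 0.57 for RPE, 0.38 for TKT, 0.14 for TALDO1, 0.65 for PRPS1, 0.52 for PRPS2, 0.17 for MGST1, 0.36 for PRDX1, 0.49 for ME1, 0.37 for GLRX, 0.43 for GSR, 0.16 for PRDX4, 0.40 for MTHFD1, 0.35 for NADK2 and 0.44 for FTH1. Leaving the 3 RNAs out, the values that turned were 0.18 for NFE2L2, 0.32 for GCLC, 0.22 for RPE, 0.26 for PRPS1, 0.14 for PRPS2, 0.099 for ME1, 0.014 for GLRX, 0.035 for GSR, 0.023 for MTHFD1, 0.063 for NADK2 and 0.026 for FTH1. Relative to the median, GCLC and PRPS1 turned with a pseudocount of 1 (0.10 for GCLC and 0.055 for PRPS1), GCLC with 0.1 (0.0050 for GCLC), and GCLC and H6PD without the 3 RNAs (0.030 for GCLC and −0.0043 for H6PD). With neither a filter nor an unshifted scale, those that turned were 0.36 for NFE2L2, 0.074 for NQO1, 0.47 for GCLC, 0.16 for TXNRD1, 0.038 for SRXN1, 0.12 for PGD, 0.35 for RPE, 0.15 for TKT, 0.42 for PRPS1, 0.30 for PRPS2, 0.13 for PRDX1, 0.27 for ME1, 0.14 for GLRX, 0.20 for GSR, 0.18 for MTHFD1, 0.12 for NADK2 and 0.21 for FTH1.

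In BON-1 cells the turned values on TPM were −0.22 for KEAP1, −0.21 for GCLC, −0.19 for GCLM, −0.28 for RPIA, −0.027 for GSK3B, −0.00062 for PRDX1, −0.0046 for NADK2, −0.086 for FTL and −0.11 for TFRC. With 0.1 these read −0.24 for KEAP1, −0.21 for GCLC, −0.22 for GCLM, −0.31 for RPIA, −0.031 for GSK3B, −0.0014 for PRDX1, −0.011 for NADK2, −0.086 for FTL and −0.11 for TFRC. No filter gave −0.22 for KEAP1, −0.21 for GCLC, −0.19 for GCLM, −0.28 for RPIA, −0.027 for GSK3B, −0.00062 for PRDX1, −0.0046 for NADK2, −0.086 for FTL and −0.11 for TFRC, and relative to the median −0.062 for KEAP1, −0.048 for GCLC, −0.030 for GCLM and −0.12 for RPIA. On counts, library size in place of TMM turned RPIA in BON-1 cells (−0.0022 for RPIA) and GCLC in QGP-1 cells (0.0098 for GCLC). GCLC also turned without a count filter (0.00014 for GCLC) and without the 3 RNAs in edgeR (0.00032 for GCLC). For the difference of response, library size gave −0.039 for GCLM, −0.0058 for PGD, −0.019 for RPE, −0.059 for PRPS2, −0.031 for GSR, −0.028 for FTH1 and −0.024 for TFRC, and no count filter −0.017 for PRPS2. Between vehicle-treated lines, library size gave 0.023 for KEAP1 and 0.081 for GSK3B, and 10 counts in every library 0.018 for GSK3B. Over the fits that left out a library, signs varied in QGP-1 cells within −0.036 to 0.054 for GCLC and −0.056 to 0.14 for H6PD. Over the fits that left out a library, signs varied in BON-1 cells within −0.085 to 0.026 for TXNRD1, −0.049 to 0.19 for RPIA and −0.10 to 0.0091 for RPE. Over the fits that left out a library, signs varied for the difference of response within −0.25 to 0.021 for KEAP1, −0.087 to 0.069 for GCLM, −0.049 to 0.18 for PGD, −0.28 to 0.38 for MUC1, −0.091 to 0.36 for PGLS, −0.051 to 0.13 for RPE, −0.076 to 0.063 for PRPS2, −0.020 to 0.086 for GSR, −0.084 to 0.061 for FTL, −0.052 to 0.085 for FTH1 and −0.0077 to 0.071 for TFRC. Over the fits that left out a library, signs varied between vehicle-treated lines within −0.22 to 0.00051 for KEAP1 and −0.085 to 0.032 for GSK3B. The cause of these changes was not tested.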
